A study of Mus musculus with 22 samples.

Results

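Dendritic cells sorted from the pancreas of NOD mice were compared with those of C57BL/6 mice after 18 h of culture in medium with phosphate-buffered saline (PBS), the vehicle of a lipopolysaccharide (LPS) arm. The arrays were chosen by their labels alone and were 8 of the 22 arrays in the series: 4 NOD PBS arrays and 4 C57BL/6 PBS arrays. In both groups the mice were females of 5 weeks of age without any gene-targeted allele, and, per the study's methods, the strains were NOD/ShiLtJ and C57BL/6J. The cells were CD45+ cells enriched on magnetic beads and then sorted as CD11c+CD8α-, and each array read RNA from a pool of 10 pancreases. Part of the sorted cells was lysed directly (steady state, 7 arrays) and part was cultured with PBS (8 arrays) or LPS (7 arrays). Levels are log2 RMA values of an Affymetrix array, and every difference is NOD minus C57BL/6 on that log2 scale, so that 1 unit is a 2-fold change.

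Dendritic cells (DCs) take up antigen, load peptides on MHC class II molecules and show them to CD4+ T cells, with costimulators and cytokines that set the outcome of that contact. CD8α- DCs are the main inducers of CD4+ T cell proliferation, and in the NOD mouse, which develops autoimmune diabetes spontaneously, DCs gather around the pancreatic islets before lymphocytes do. Removal from tissue and overnight culture by itself activates DCs, so a vehicle culture is not a resting state.

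The sorted cells expressed the CD45 and CD11c genes of their label. The brightest probe set of Cd8a, which the label excludes, also read above the array median in all 8 pools. In NOD and in C57BL/6 PBS cultures the mean levels were 12.27 ± 0.21 and 12.66 ± 0.19 for Ptprc (CD45), 8.93 ± 0.23 and 9.03 ± 0.08 for Itgax (CD11c), and 9.72 ± 0.18 and 10.04 ± 0.19 for Zbtb46, a transcription factor of conventional DCs (SD, n = 4 each). All were above the median of the arrays, which lay between 7.63 and 7.68. In the unpaired fit the brightest probe sets of these 3 did not pass the test between strains. Other probe sets did, for Ptprc (-0.66, limma adjusted p = 0.0885) and for Zbtb46 (-0.51 and -0.48, limma adjusted p = 0.0376 and 0.0581). The brightest probe set of Ptprc passed it with the replicate number as a block (log2 difference -0.40, limma adjusted p = 0.0299). With the mean over probe sets Ptprc (-0.53), Zbtb46 (-0.46) and Cd8a (-0.64) were lower in NOD cells (limma adjusted p = 0.00435, 0.0321 and 0.0196). Cd8a, the marker the sort excluded, had levels of 8.43, 8.66, 8.25 and 8.44 in NOD cultures, against 8.80, 9.02, 10.34 and 8.79 in C57BL/6 cultures. These lay close to the levels of Itgax in most pools, though levels of different probe sets do not rank genes by amount. They are values of the brightest Cd8a probe set. The others averaged 6.94, 6.70, 5.81 and 4.55 in NOD and 8.20, 6.96, 6.10 and 5.15 in C57BL/6 cultures, in the same order. Those with NOD means of 6.94 and 4.55 were lower in NOD cells (-1.27 and -0.60, limma adjusted p = 0.000299 and 0.0428). C57BL/6 replicate 3 stood apart in Cd8a, and it correlated least with the other arrays of its group (r from 0.984 to 0.986 over probe sets, against 0.987 to 0.992 among the others). Adgre1, a macrophage marker, was also high in both strains, at 11.89 ± 0.23 in NOD and 11.97 ± 0.15 in C57BL/6 cultures (SD, n = 4 each). The arrays read mixed RNA, so fewer cells of a type and less RNA per cell cannot be told apart in any value below.

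In PBS culture 1927 of 18193 genes differed between the strains (10.6%), with 983 higher (5.4%) and 944 lower (5.19%) in NOD cells, at a limma adjusted p under 0.1. A gene is represented here by its brightest probe set, and a gene past this threshold is referred to as called. Over all 45037 probe sets, 4447 were called (9.87%), of which 2155 were higher (4.78%) and 2292 lower (5.09%) in NOD cells. No source says that equal array numbers pair the strains, and a pairing was inferred from the values. With the number as a block the called probe sets came to 6826 (15.2%). A change of at least 2-fold was reached by 387 called genes (2.13%) in either direction. The 4 NOD values and the 4 C57BL/6 values did not overlap for 2602 genes (14.3%). The median difference over all genes was 0.04. Without C57BL/6 replicate 3 the count of called probe sets was 3771, and leaving out any of the 8 arrays gave between 3137 and 3819.

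**Figure D1:**
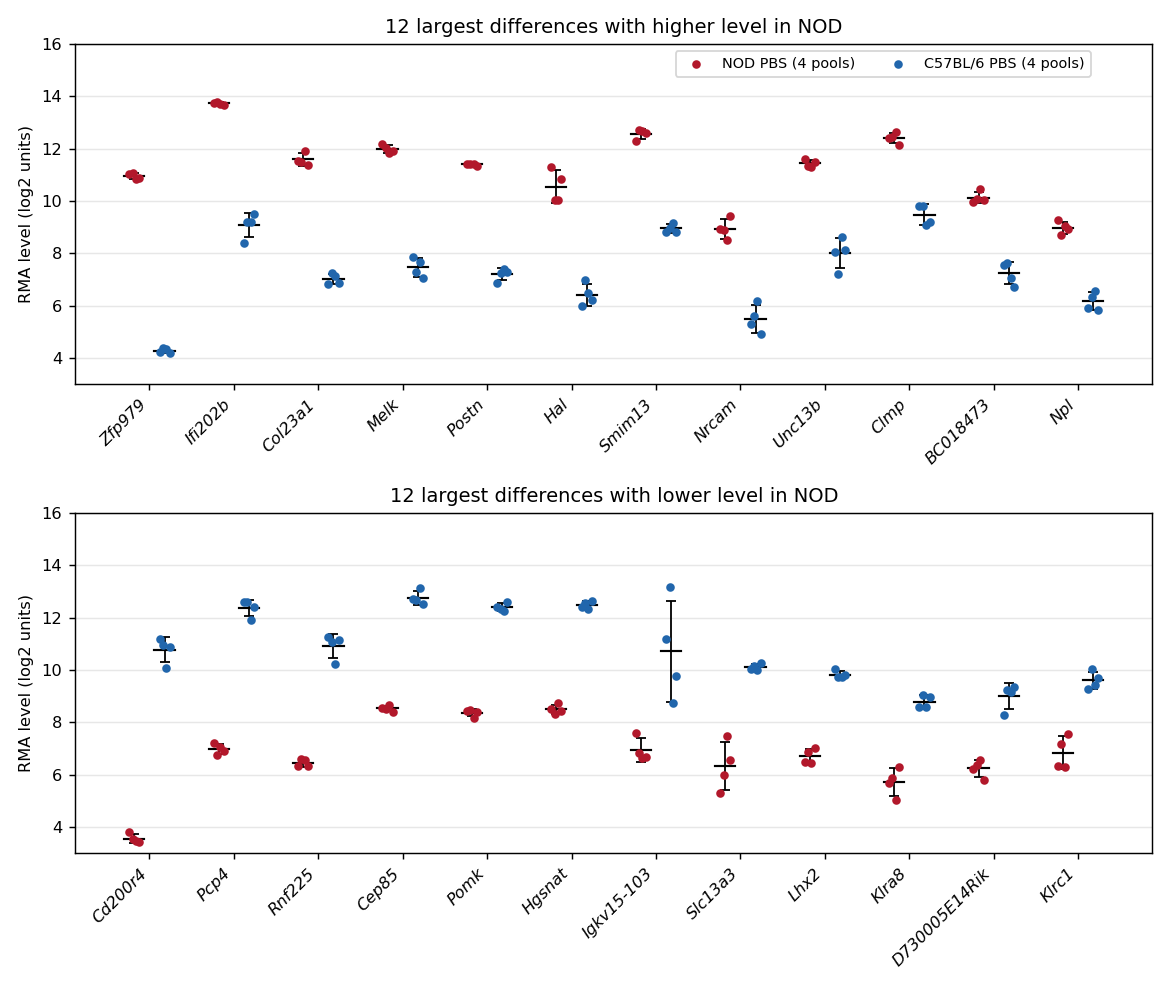
RMA level (log2 units, vertical axis) of the 12 genes with the largest higher level in NOD (upper panel) and the 12 with the largest lower level in NOD (lower panel) after 18 h in PBS; points are the 4 NOD PBS arrays (red, left) and the 4 C57BL/6 PBS arrays (blue, right), with the mean and SD in black. By the rule for choosing them the groups do not overlap; Zfp979 differs by 6.67 and Cd200r4 by -7.22, and the C57BL/6 points of Igkv15-103 spread from 8.73 to 13.19.

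The largest difference was in Cd200r4, a member of the receptor family for CD200, a ligand that restrains myeloid cells. Its levels were 3.79, 3.54, 3.45 and 3.42 in NOD cultures, against 11.20, 10.93, 10.09 and 10.86 in C57BL/6 cultures. The NOD values all lay below the lower quartile of the arrays (6.19 to 6.35), while the C57BL/6 values were far above the median. The difference was -7.22 ± 0.21 (SE, limma adjusted p = 6.25e-09). In the other direction Zfp979, a zinc finger gene, had levels of 11.02, 11.08, 10.83 and 10.88 in NOD cultures, against 4.21, 4.39, 4.35 and 4.18 in C57BL/6 cultures, a difference of 6.67 ± 0.11 (SE, limma adjusted p = 5.97e-11). Ifi202b, an interferon-inducible gene of the p200 family whose product binds cytosolic DNA, read 13.75, 13.80, 13.71 and 13.68 in NOD cultures, against 8.41, 9.19, 9.19 and 9.52 in C57BL/6 cultures. It was closely grouped at a high level in the NOD pools and lower in each C57BL/6 pool. These 3 genes differed in the same direction in cells lysed directly after the sort, by -5.09 (Cd200r4), 5.74 (Zfp979) and 3.81 (Ifi202b).

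Several of the largest differences were not present, or were much smaller, in cells that had not been cultured. Melk, a kinase of dividing cells, had levels of 12.18, 12.02, 11.83 and 11.90 in NOD PBS cultures, against 7.85, 7.30, 7.65 and 7.06 in C57BL/6 PBS cultures. At steady state it averaged 7.78 ± 0.13 in NOD (SD, n = 3) and 8.76 ± 0.25 in C57BL/6 cells (SD, n = 4), so that the direction was the opposite. The strain difference in culture exceeded that at steady state by 5.50 (limma interaction term, adjusted p = 7.76e-10). Pcp4, which codes for a small calmodulin-binding protein, showed the reverse layout. It read 7.20, 6.77, 7.07 and 6.89 in NOD PBS cultures, against 12.58, 12.59, 11.91 and 12.39 in C57BL/6 PBS cultures, a difference of -5.38 ± 0.17 (SE, limma adjusted p = 6.31e-09). At steady state Pcp4 was low in both strains, at 6.74 ± 0.45 (n = 3) in NOD and 6.65 ± 0.21 (n = 4) in C57BL/6 cells (SD). Thus Pcp4 was high only in the cultured C57BL/6 groups (12.37 ± 0.32 with PBS, SD, n = 4, and 12.16 ± 0.50 with LPS, SD, n = 3) among the 6 groups of the series.

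Rnf225, a RING finger gene, and Lhx2, a LIM homeobox transcription factor, had the same layout as Pcp4. Rnf225 averaged 6.45 ± 0.14 in NOD and 10.92 ± 0.47 in C57BL/6 PBS cultures (SD, n = 4 each), against 6.09 ± 0.05 (n = 3) and 5.80 ± 0.11 (n = 4) at steady state. Lhx2 averaged 6.70 ± 0.28 in NOD and 9.82 ± 0.14 in C57BL/6 PBS cultures (SD, n = 4 each), and differed by 0.26 between strains at steady state (limma adjusted p = 0.216). Col23a1, a transmembrane collagen, and Postn, the matrix protein periostin, were the mirror image. Col23a1 read 11.55, 11.50, 11.92 and 11.38 in NOD PBS cultures, against 6.84, 7.25, 7.14 and 6.86 in C57BL/6 PBS cultures, and all 3 of its probe sets were called. Postn stayed between 11.34 and 11.43 in NOD PBS cultures, against 6.88 to 7.41 in C57BL/6 PBS cultures. Their strain differences at steady state were 0.57 and 1.00.

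Pomk, a kinase that modifies dystroglycan, and Hgsnat, a lysosomal enzyme of heparan sulfate breakdown, are neighbours in the gene order and differed alike. Pomk had levels of 8.44, 8.46, 8.17 and 8.41 in NOD cultures, against 12.39, 12.33, 12.26 and 12.60 in C57BL/6 cultures. Hgsnat had levels of 8.50, 8.30, 8.72 and 8.44 in NOD cultures, against 12.40, 12.56, 12.33 and 12.64 in C57BL/6 cultures. At steady state the differences were -0.77 for Pomk and -1.01 for Hgsnat. Among the 387 genes called with at least 2-fold, of 18029 placed in the gene order, 56 lay in 26 runs of adjacent genes that all reached this size. In 19 of these runs the genes moved in 1 direction. How many such runs would form with genes placed at random was not computed, so the counts have no background. Hmga2, a chromatin protein of growing cells, and Slc7a2, a transporter of arginine, turned direction with culture. Hmga2 differed by 2.21 in PBS culture and by -0.78 at steady state. Slc7a2 differed by 1.57 in PBS culture and by -2.96 at steady state, and all 4 of its probe sets were higher in the NOD cultures.

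Other large differences were of similar size in both conditions. Hal, which degrades histidine, differed by 4.13 ± 0.29 in PBS culture (SE) and by 3.80 at steady state. Clmp, an adhesion molecule, differed by 2.92 and 2.34, and Cep85, a centrosomal protein, by -4.23 and -3.83. The interaction term was not called for these 3 genes. Nrcam, a neuronal adhesion molecule, was higher in NOD cells in both, by 3.44 in PBS culture and by 5.37 at steady state, and the difference was smaller in culture (interaction -1.92, limma adjusted p = 0.00138). The remaining large differences with higher NOD levels were Smim13 (3.62), Unc13b (3.43), which primes secretory vesicles, BC018473 (2.89) and Npl (2.81), an enzyme of sialic acid breakdown. Those with lower NOD levels were Igkv15-103 (-3.78), an immunoglobulin light chain segment, Slc13a3 (-3.77), a dicarboxylate transporter, D730005E14Rik (-2.78), and the NK cell receptors Klra8 (-3.07) and Klrc1 (-2.77). Not all of these remaining differences were of similar size at steady state. The interaction term was called for Smim13 (2.67), Unc13b (1.60), Npl (1.47), BC018473 (-1.19), Slc13a3 (-2.23) and D730005E14Rik (-1.49). With the block that of D730005E14Rik was not called (limma adjusted p = 0.258).

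**Figure D2:**
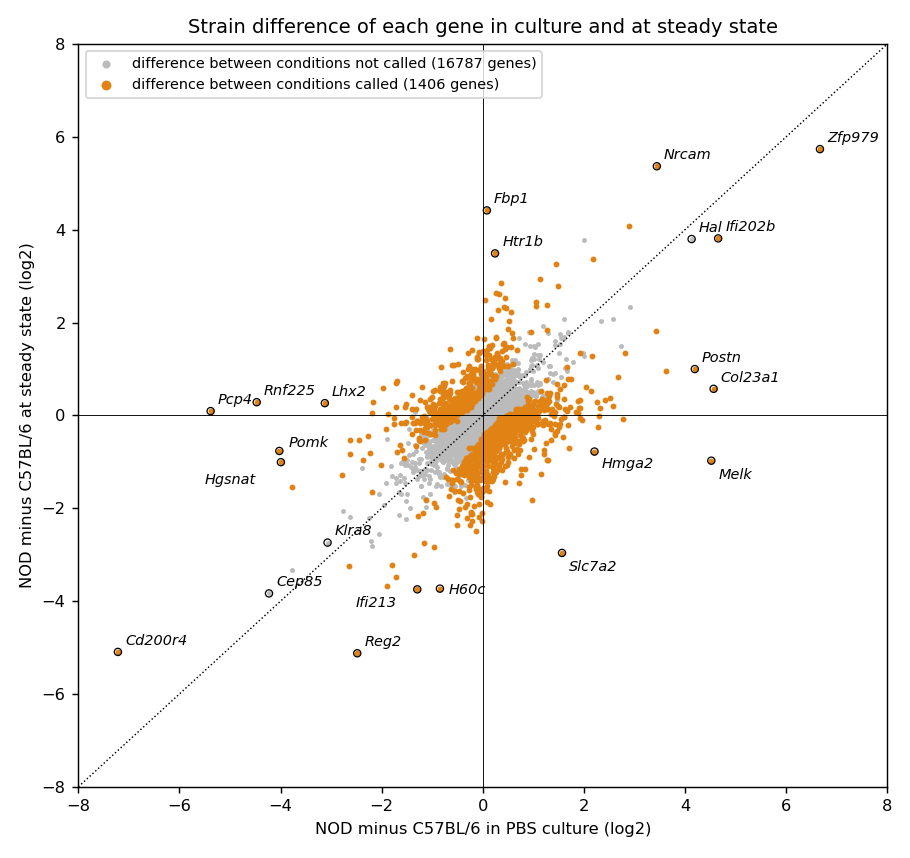
Strain difference (NOD minus C57BL/6, log2) of each of 18193 genes in PBS culture (horizontal axis) and at steady state (vertical axis); the dotted line marks equal differences, and orange points are the 1406 genes whose differences in these 2 conditions were themselves called as different. Zfp979, Ifi202b, Hal and Cd200r4 lie far out in both conditions, Pcp4, Rnf225 and Lhx2 lie near 0 at steady state, and Fbp1 and Htr1b lie near 0 in culture.

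Across all genes, 661 were called in the same direction in PBS culture and at steady state, which is 34.3% of the genes called in PBS culture and 24.1% of the 2743 called at steady state (15.1% of all genes, 6.95% higher and 8.12% lower in NOD cells), and 82 were called in opposite directions. The interaction term was called for 1406 genes (7.73%), 873 of them with a more positive (4.8%) and 533 with a more negative (2.93%) strain difference in culture. Without NOD steady state replicate 4 it was called for 922 genes, and with the strain and replicate number as a block for 306. That block rests on 4 pairs of arrays, since 7 of the 15 arrays have no partner of equal number. Of the 99 named genes with a called interaction, all 99 had the same direction with the block and 42 kept the call. Some strain differences were called at steady state but not in PBS culture, or were much smaller there. Fbp1, an enzyme of gluconeogenesis, differed by 4.42 at steady state, whereas its PBS culture levels lay between 4.23 and 4.61 in NOD and between 4.11 and 4.59 in C57BL/6 cells. Htr1b, a serotonin receptor, differed by 3.49 at steady state and by 0.24 in PBS culture. H60c, a ligand of the NK receptor NKG2D, differed by -3.73 at steady state and by -0.85 in PBS culture, where it was still called (limma adjusted p = 0.00707).

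MHC class II genes and the genes that load class II molecules were lower in NOD cells. Of 12 measured members 8 were lower and none was higher (background 5.19% lower), with a median difference of -0.72. H2-DMa, a chain of the peptide exchange factor H2-DM, had levels of 9.48, 9.45, 9.27 and 9.42 in NOD cultures, against 11.50, 11.06, 10.98 and 11.11 in C57BL/6 cultures, a difference of -1.75 ± 0.13 (SE, limma adjusted p = 1.22e-05). H2-Aa, the alpha chain of I-A, read 12.49, 12.95, 12.64 and 13.02 in NOD cultures, against 13.84, 13.79, 13.94 and 13.94 in C57BL/6 cultures. The groups did not overlap for either gene, and all 4 probe sets of H2-Aa were called. H2-DMb2, the partner chain of H2-DMa, differed by -1.09 ± 0.24 and Ciita, the master activator of class II transcription, by -0.91 ± 0.19 (SE, limma adjusted p = 0.0187 and 0.012). The other 4 called members were H2-Eb1 (-0.77) and H2-Ab1 (-0.68), beta chains of I-E and I-A, H2-Oa (-0.66), a chain of the H2-DM inhibitor H2-O, and Cd74 (-0.38), the invariant chain. H2-Eb1, H2-Oa and Cd74 were named after their values were seen, as the remaining called members.

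**Figure D3:**
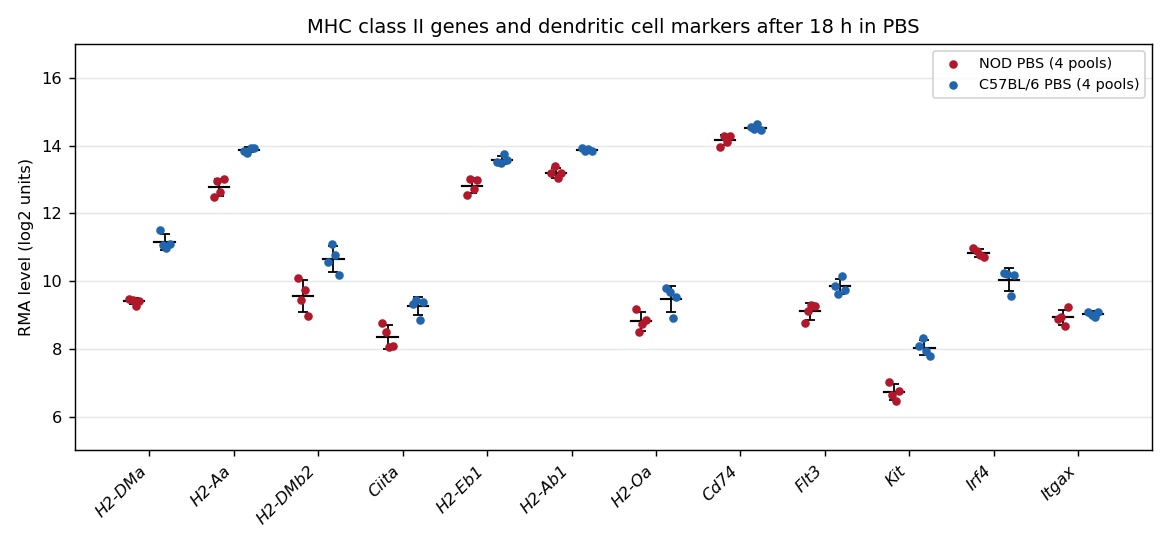
RMA level (log2 units, vertical axis) of the 8 called MHC class II genes and of 4 dendritic cell genes after 18 h in PBS; points are the 4 NOD PBS arrays (red, left) and the 4 C57BL/6 PBS arrays (blue, right), with the mean and SD in black. The groups do not overlap for H2-DMa, H2-Aa, H2-DMb2, Ciita, H2-Eb1, H2-Ab1 and Cd74, overlap for H2-Oa and Itgax, and for Irf4 the NOD points are the higher ones.

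The calls of H2-Oa and Cd74 were the weakest of this group. H2-Oa read 9.17, 8.49, 8.73 and 8.85 in NOD cultures, against 9.79, 9.67, 8.90 and 9.52 in C57BL/6 cultures, and its call was lost without NOD replicate 2, 3 or 4 or C57BL/6 replicate 1, 2 or 4 (limma adjusted p from 0.139 to 0.2). Cd74 lost its call without NOD replicate 1 or 3 or C57BL/6 replicate 1, 2 or 3 (limma adjusted p from 0.125 to 0.164). H2-Ab1 had 3 probe sets, of which 2 were called lower. At steady state 3 of the 12 members were lower (background 8.12%), with a median of -0.11. The interaction term was called for 5 members, all with a lower strain difference in culture (background 2.93%, and 1 member, H2-DMa, with the block). H2-DMa differed by -0.05 at steady state (12.59 ± 0.31 in NOD, n = 3, and 12.64 ± 0.32 in C57BL/6 cells, n = 4, SD).

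The promoters of class II genes share a motif block that binds the RFX, CREB and NF-Y factors, on which the Ciita product assembles, and the NF-Y element in it is the Y box. The Y box core GATTGG, searched after the values were seen and on both strands, was in the promoter windows of 5 of the 5 lower class II genes that had a window (250 bases before to 50 after the start site). Over all 32851 promoter windows 16.1% held it. The bases around it are shown, with the core in capitals, for the 4 of these 5 genes in which it lies nearest to the start site. In the other, H2-DMa, it starts 199 bases before the start site and is not shown. They come from the RefSeq sequence of mouse build GRCm38.p6, which is that of C57BL/6J, and the NOD sequence was not used here. The stretches are chr17:34287827-34287912 on the minus strand for H2-Aa, and chr17:34305767-34305852 for H2-Eb1, chr17:34145118-34145203 for H2-DMb2 and chr17:34092295-34092380 for H2-Oa on the plus strand.
H2-Aa: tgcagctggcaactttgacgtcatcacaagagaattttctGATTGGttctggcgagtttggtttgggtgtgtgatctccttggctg
H2-Eb1: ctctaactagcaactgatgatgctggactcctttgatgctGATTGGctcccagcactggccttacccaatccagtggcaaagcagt
H2-DMb2: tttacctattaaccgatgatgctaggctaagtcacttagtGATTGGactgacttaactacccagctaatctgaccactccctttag
H2-Oa: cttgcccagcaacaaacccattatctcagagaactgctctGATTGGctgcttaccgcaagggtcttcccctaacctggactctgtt
The core in capitals starts 49 bases before the start site in H2-Aa, 60 in H2-Eb1, 91 in H2-DMb2 and 44 in H2-Oa. The H2-Eb1 stretch also holds the core on the opposite strand (CCAATC), left in lower case, which starts 35 bases before the start site. Of the 3 class II members with a window that were not called, 2 held it as well, so its presence did not separate called from uncalled members.

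DC identity genes differed in both directions. Of 16 measured markers of CD8α- DCs 5 were lower and 2 higher in NOD cells (background 5.19% lower and 5.4% higher). Flt3, the receptor for the growth factor that DCs depend on, read 8.76, 9.11, 9.28 and 9.27 in NOD cultures, against 9.86, 9.63, 10.14 and 9.75 in C57BL/6 cultures (difference -0.74 ± 0.15, SE, limma adjusted p = 0.0125). Kit, the stem cell factor receptor, was lower in all NOD pools and differed by -1.31 ± 0.15, against -0.13 at steady state. Irf4, the transcription factor of CD8α- DCs, went the other way, at 10.98, 10.88, 10.78 and 10.70 in NOD cultures, against 10.23, 10.22, 9.55 and 10.18 in C57BL/6 cultures. The lower markers numbered 3 in place of 5 without NOD replicate 3 or C57BL/6 replicate 1 or 2, and the higher ones 1 in place of 2 without NOD replicate 1 or 3 or C57BL/6 replicate 1, 2 or 4. Of 24 macrophage markers 4 were higher and 4 lower (background 5.4% and 5.19%). Mrc1, the mannose receptor, was higher by 0.94 ± 0.15 in NOD cells (SE, limma adjusted p = 0.00337). The higher macrophage markers numbered 2 without NOD replicate 2, 3 or 4 or C57BL/6 replicate 4.

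Of 22 measured genes of inflammatory cytokines 8 were higher in NOD cells (background 5.4%), 2 were lower (background 5.19%) and 12 were not called, with a median difference of 0.32. At steady state 1 was higher (background 6.95%) and 4 were lower (background 8.12%). Csf3, which codes for the granulocyte growth factor G-CSF, had levels of 10.26, 10.52, 11.69 and 9.99 in NOD cultures, against 8.20, 8.93, 7.63 and 7.68 in C57BL/6 cultures. The lowest NOD pool was above the highest C57BL/6 pool by about 1 unit, and the difference was 2.51 ± 0.36 (SE, limma adjusted p = 0.00146). Il1a, an alarm cytokine of the IL-1 family, read 10.35, 10.58, 11.00 and 9.94 in NOD cultures, against 9.24, 9.35, 8.68 and 8.89 in C57BL/6 cultures. Tnf was closely grouped in both strains, at 11.76, 11.93, 12.25 and 11.85 in NOD cultures, against 11.15, 11.23, 11.11 and 11.09 in C57BL/6 cultures (difference 0.81 ± 0.12, SE, limma adjusted p = 0.00225). Il18, which drives interferon-gamma production, differed by 0.76 ± 0.13, and Nlrp3, the sensor of the inflammasome that matures IL-1 and IL-18, by 0.69 ± 0.15 (SE).

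**Figure D4:**
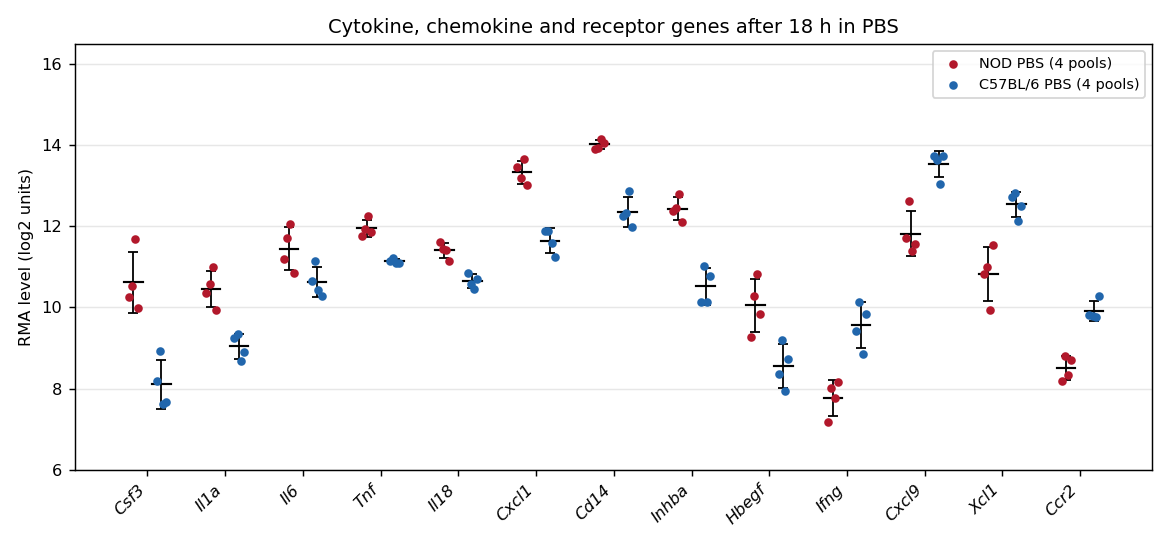
RMA level (log2 units, vertical axis) of cytokine, chemokine, growth factor and receptor genes after 18 h in PBS; points are the 4 NOD PBS arrays (red, left) and the 4 C57BL/6 PBS arrays (blue, right), with the mean and SD in black. The NOD points are higher for Csf3, Il1a, Tnf, Il18, Cxcl1, Cd14, Inhba and Hbegf, the groups overlap for Il6, and the NOD points are lower for Ifng, Cxcl9, Xcl1 and Ccr2.

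Other calls among these genes were weaker. Il6 had levels of 11.20, 11.72, 12.05 and 10.84 in NOD cultures, against 10.66, 11.14, 10.42 and 10.28 in C57BL/6 cultures, and these overlapped. Its difference of 0.83 ± 0.26 (SE, limma adjusted p = 0.0855) was lost without NOD replicate 1, 2 or 3 or C57BL/6 replicate 1, 3 or 4 (adjusted p from 0.1 to 0.214). Il1f6, a further IL-1 family member, differed by 1.48 ± 0.38 (SE, limma adjusted p = 0.0391) and lost its call without C57BL/6 replicate 4 (adjusted p = 0.102). Trem1, a receptor that amplifies inflammatory signals, differed by 1.28 ± 0.19 (SE), and 1 of its 2 probe sets was called. The interaction term was called for Csf3, Il1a, Tnf, Il6, Il18, Nlrp3 and Trem1, in each with a more positive strain difference in culture than at steady state. Of these, Trem1 was called higher at steady state, by 0.33 (limma adjusted p = 0.0905), and Nlrp3 lower, by -0.72 (limma adjusted p = 0.0437).

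Among 25 chemokine genes 5 were higher (background 5.4%) and 2 lower (background 5.19%) in NOD cells, and with the replicate number as a block 4 were lower (background 7.46%). The lower count in the unpaired fit was thus near the background. Cxcl1, a ligand that draws neutrophils, read 13.46, 13.18, 13.66 and 13.03 in NOD cultures, against 11.90, 11.88, 11.59 and 11.24 in C57BL/6 cultures, and all 3 of its probe sets were called. Cxcl14 was higher by 1.67 ± 0.22 (SE). Ccrl2, a receptor that holds the attractant chemerin at the cell surface, was higher by 0.93 ± 0.13 (SE). In contrast Cxcl9, an interferon-gamma-induced ligand for T cells, was lower, at 11.71, 12.63, 11.38 and 11.57 in NOD cultures, against 13.73, 13.65, 13.06 and 13.74 in C57BL/6 cultures. At steady state Cxcl9 was higher in NOD cells by 0.69 (limma adjusted p = 0.0623; interaction -2.41, adjusted p = 0.000609). Ccr2, the receptor for monocyte-attracting chemokines, had 4 probe sets, all lower, and read 8.19, 8.79, 8.33 and 8.71 in NOD cultures, against 9.82, 9.80, 9.75 and 10.28 in C57BL/6 cultures.

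Ifng and Xcl1, cytokine genes of lymphoid cells, were lower in NOD cells. Ifng read 7.16, 8.01, 7.76 and 8.16 in NOD cultures, against 9.43, 10.14, 8.84 and 9.85 in C57BL/6 cultures, a difference of -1.79 ± 0.28 (SE, limma adjusted p = 0.00221). Xcl1, which attracts cross-presenting DCs and is made by NK and T cells, read 10.82, 11.00, 9.93 and 11.55 in NOD cultures, against 12.72, 12.81, 12.12 and 12.51 in C57BL/6 cultures. Both were lower at steady state too, by -1.31 (Ifng) and -1.45 (Xcl1), and markers of NK cells moved with them.

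Of 22 Toll-like receptor and adaptor genes 7 were higher (background 5.4%) and 2 lower (background 5.19%) in NOD cells. Cd14, the LPS co-receptor, had the largest difference of the called members, with levels of 13.91, 13.95, 14.17 and 14.07 in NOD cultures, against 12.26, 12.32, 12.86 and 11.98 in C57BL/6 cultures (1.66 ± 0.17, SE, limma adjusted p = 0.000129). At steady state Cd14 differed by 0.09. Tirap, an adaptor of Tlr2 and Tlr4, was higher by 0.72 ± 0.16, whereas Tlr9, which senses bacterial DNA, was lower by -0.72 ± 0.16 and Tlr1 by -0.70 ± 0.16 (SE). The higher members numbered 4 without NOD replicate 3 or C57BL/6 replicate 2. Of 20 NF-kB subunit and feedback genes 5 were higher (background 5.4%) and 1 lower (background 5.19%), with differences of at most 0.54 (Ier3, an early response gene) and -0.60 (Dusp2, a MAP kinase phosphatase). The count of 5 was 1 without NOD replicate 3 or C57BL/6 replicate 3, 2 without C57BL/6 replicate 1 and 3 without NOD replicate 2 or C57BL/6 replicate 2 or 4.

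NF-kB binds a short motif in many promoters of this kind, and a form of it, GGGA and TTTCC with any single base between them, was searched on both strands after the values were seen. It was found in 0.411% of all promoter windows. It was in 2 of the 5 higher cytokine genes with a window, in 2 of the 4 higher chemokine genes with a window, in 0 of the 10 uncalled cytokine genes with a window, and in 1 of the 11 uncalled chemokine genes with a window. The stretches below show the match in capitals for Il6 (chr5:30013030-30013119) and Cxcl1 (chr5:90891134-90891223), both on the plus strand of GRCm38.p6 in RefSeq, since these are called genes in which the match is close to the start site.
Il6: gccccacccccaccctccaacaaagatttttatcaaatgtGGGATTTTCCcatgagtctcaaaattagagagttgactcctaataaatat
Cxcl1: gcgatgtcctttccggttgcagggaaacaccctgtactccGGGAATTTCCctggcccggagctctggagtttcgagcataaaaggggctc
The match starts 44 bases before the start site in Il6 and 71 in Cxcl1. The other called genes with a match were Csf1 and Cxcl2.

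Growth factor genes stood out by single members. Inhba, which codes for the activin A chain, had levels of 12.37, 12.46, 12.81 and 12.11 in NOD cultures, against 10.12, 11.04, 10.14 and 10.78 in C57BL/6 cultures (1.92 ± 0.22, SE, limma adjusted p = 0.000293). Hbegf, a ligand of the EGF receptor, was higher by 1.50 ± 0.32 (SE). Fgf2 and Thbs1 (thrombospondin 1, which activates latent TGF-beta) were lower, by -1.16 ± 0.23 and -1.10 ± 0.21 (SE). Of 25 members in all 4 were higher (background 5.4%) and 2 lower (background 5.19%). The values of Fgf2 were at or below 5.13 in NOD cultures and at or below 6.61 in C57BL/6 cultures, under the array median.

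Of 27 anti-inflammatory and tolerance genes 6 were lower (background 5.19%) and 2 higher (background 5.4%) in NOD cells, and with the replicate number as a block 11 were lower (background 7.46%) and 4 higher (background 8.12%). Part of this list follows genes that the study chose. Besides Cd200r4, the lower members included Ido1, which degrades tryptophan and restrains T cells, at 8.31, 8.91, 8.62 and 8.53 in NOD cultures, against 9.79, 10.12, 9.63 and 10.06 in C57BL/6 cultures (-1.31 ± 0.16, SE, limma adjusted p = 0.000382). Pdcd1lg2, the PD-1 ligand PD-L2, differed by -0.94 ± 0.20 and Tgfb2 by 0.88 ± 0.17 (SE). The higher members numbered 4 without C57BL/6 replicate 3. Among costimulators Tnfsf4 (OX40 ligand) was higher by 1.10 ± 0.15 and Cd48, a ligand of 2B4 on NK and T cells, lower by -1.10 ± 0.13 (SE). Neither differed at steady state by more than 0.12 in size.

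Of 12 Fc receptor and adaptor genes 4 were lower in NOD cells (background 5.19%), none was higher and 8 were not called. Fcgr2b, the inhibitory Fc receptor, read 11.32, 11.09, 11.67 and 11.00 in NOD cultures, against 12.49, 12.41, 12.66 and 12.59 in C57BL/6 cultures (-1.27 ± 0.15, SE, limma adjusted p = 0.000364). The groups did not overlap, and 4 of its 5 probe sets were called. Fcgr4, an activating receptor, differed by -0.76 ± 0.15, Clec7a (Dectin-1, a receptor for fungal glucan) by -1.13 ± 0.16 and Pirb, an inhibitory receptor that binds MHC class I, by -0.88 ± 0.12 (SE).

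Of 29 antiviral interferon-stimulated genes 2 were higher (background 5.4%) and none was lower in PBS culture, with a median of 0.08, whereas 21 were lower at steady state (background 8.12%), with a median of -0.59. The interaction term was called for 20 of the 29 (background 4.8%), and for 6 with the block, all with a more positive difference in culture. Mx1, an antiviral GTPase, averaged 13.51 ± 0.08 in NOD and 13.43 ± 0.09 in C57BL/6 PBS cultures (SD, n = 4 each), against 9.27 ± 0.21 (n = 3) and 10.17 ± 0.09 (n = 4) at steady state. Mx1 was therefore at a high level in every cultured pool of both strains. Mx2 was higher in NOD PBS cultures by 0.63 ± 0.14 (SE, limma adjusted p = 0.0166), and the count of 2 higher members was 1 without NOD replicate 3 or C57BL/6 replicate 1 or 2. In the p200 family Ifi213 was lower in NOD cells by -1.30 in PBS culture and by -3.75 at steady state in its brightest probe set, opposite in direction to Ifi202b. The other probe set of Ifi213 differed by -4.13 in PBS culture (limma adjusted p = 6.25e-09), so the smaller difference in culture rests on 1 probe set.

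Of 38 mitosis genes 3 were higher (background 5.4%) and 7 lower (background 5.19%) in NOD cells in PBS culture, against 1 higher (background 6.95%) and 35 lower (background 8.12%) at steady state. A called interaction was found for 24 with a more positive difference in culture (background 4.8%, and 7 members with the block). For 1 it was more negative (background 2.93%). The median difference over the list in PBS culture was -0.11. Its summed level ran from 13.68 to 13.98 in NOD cells and from 13.10 to 13.42 in C57BL/6 cells, without overlap. That sum adds linear values, so it follows the brightest members and not the list as a whole. Mki67, which marks dividing cells, read 11.01, 10.73, 11.29 and 10.44 in NOD cultures, against 10.14, 10.42, 9.84 and 10.05 in C57BL/6 cultures. The difference was 0.76 ± 0.19 (SE, limma adjusted p = 0.0318), against -1.27 at steady state. Tpx2, a spindle protein, was higher by 1.14 ± 0.17 (SE), with 2 of its 4 probe sets called. The lower members differed by -0.39 (Aurka, a mitotic kinase) to -0.85 (Ube2c, which marks mitotic proteins for degradation, limma adjusted p = 0.0683). Their count of 7 was 2 without C57BL/6 replicate 1 or 2, 3 without NOD replicate 2, 3 or 4, and 4 without C57BL/6 replicate 4. Of 34 DNA replication genes 3 were lower in PBS culture (background 5.19%), among them Ccne1 (-0.68) and Mcm5 (-0.68), against 22 at steady state (background 8.12%). The count in PBS culture was 6 with the replicate number as a block (background 7.46%) and 8 without C57BL/6 replicate 3.

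**Figure D5:**
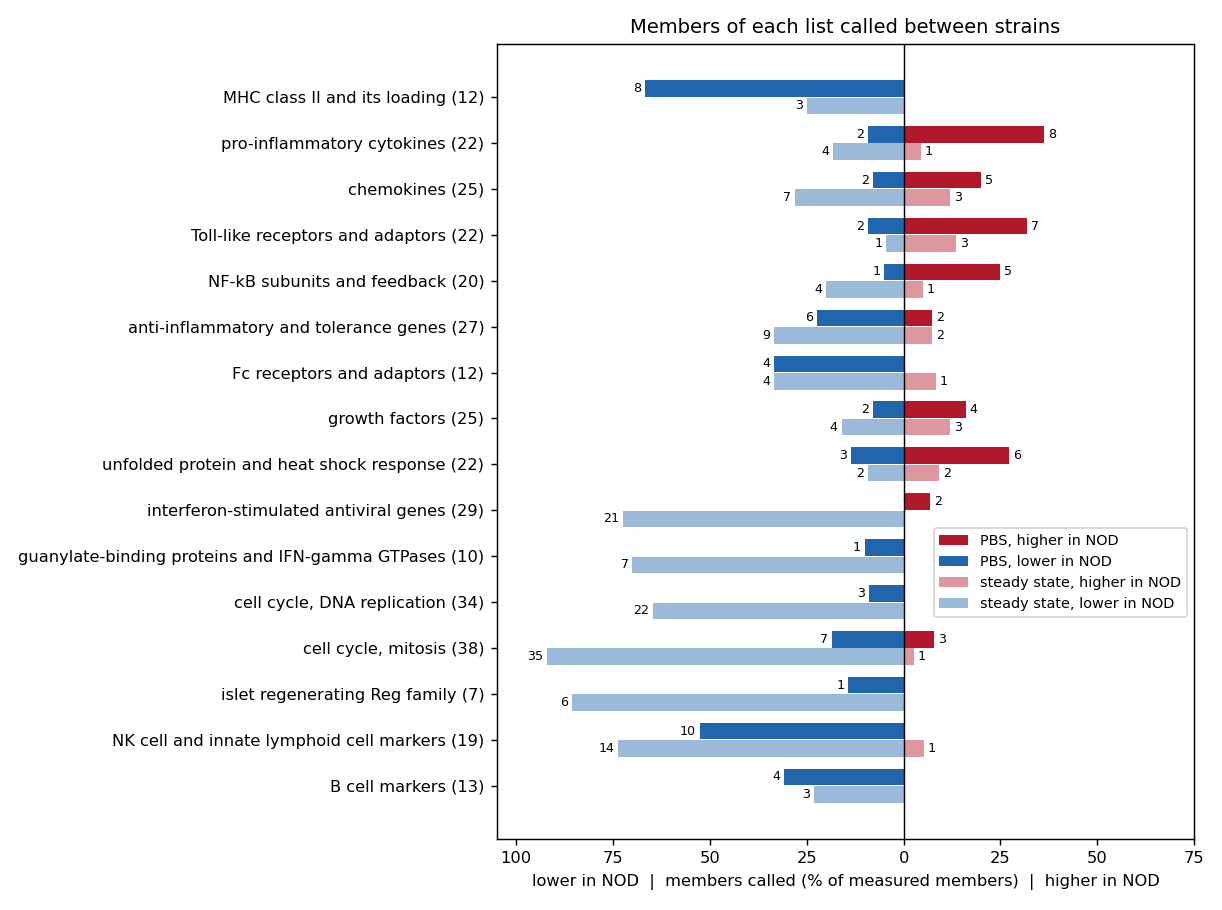
Members of 16 gene lists that were called higher (to the right, red) or lower (to the left, blue) in NOD than in C57BL/6 cells, as a percentage of the measured members (in brackets) on the horizontal axis, in PBS culture (full colour, upper bar) and at steady state (pale, lower bar); the numbers are counts of genes. MHC class II shows 8 lower members in PBS culture, while the interferon-stimulated and mitosis lists show 21 and 35 lower members at steady state and 0 and 7 in PBS culture.

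Reg genes, which code for secreted lectins named for islet regeneration, were called in 1 case in PBS culture. Of 7 members 1 was lower (background 5.19%), against 6 at steady state (background 8.12%). A called interaction was found for 5, all more positive in culture (background 4.8%). It was found for 1 with the block and for 2 to 5 with 1 array left out (2 without NOD steady state replicate 4, for example). Reg2 read 7.26, 6.92, 7.03 and 6.49 in NOD cultures, against 11.63, 7.25, 9.10 and 9.66 in C57BL/6 cultures. C57BL/6 replicate 2 fell within the NOD range and replicate 1 was high, and the difference of -2.48 ± 0.67 (SE, limma adjusted p = 0.0498) lost its call without NOD replicate 2, 3 or 4 or C57BL/6 replicate 4 (adjusted p from 0.107 to 0.12). Without C57BL/6 replicate 2 the list had 2 lower members, the other being Reg1 (-2.04, limma adjusted p = 0.0415), whose difference over all pools was -1.19 ± 0.76 (SE, limma adjusted p = 0.462). The others differed by -0.34 (Reg3a), -0.23 (Reg3b), -0.27 (Reg3d), -0.03 (Reg3g) and -0.05 (Reg4), none called. Transcripts of acinar cells varied widely between pools of a strain: their summed level ran from 12.54 to 16.06 in NOD and from 12.60 to 15.66 in C57BL/6 cultures on the log2 scale, and none of 12 members was called. Their part in the Reg values was not tested. Of 12 islet cell transcripts none was called by limma, and 1 was higher with the block or without NOD replicate 4.

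Of 13 genes of neurons 5 were higher (background 5.4%) and 1 lower (background 5.19%) in NOD cells, in a list that holds genes the study chose. Nrcam was called in all 4 of its probe sets. Ank2, which anchors membrane proteins to the cytoskeleton, read 8.51, 8.60, 8.89 and 8.76 in NOD cultures, against 7.64, 7.64, 7.29 and 7.63 in C57BL/6 cultures, and 5 of its 6 probe sets were called. Cacna1a, a calcium channel subunit, was higher by 0.93 ± 0.13 (SE) in its brightest probe set and by 1.71 to 2.52 in the others, and all 4 were called. Nlgn2, a synaptic adhesion molecule, was higher by 1.30 ± 0.16 (SE), while its other probe set (0.26) was not called. At steady state these genes were higher in NOD cells as well, by 1.30 (Ank2), 1.50 (Cacna1a) and 0.78 (Nlgn2). The single lower member was not called without NOD replicate 1, 3 or 4 or C57BL/6 replicate 2.

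Stress and metabolic genes differed in parts. Of 22 genes of the unfolded protein and heat shock responses 6 were higher (background 5.4%) and 3 lower (background 5.19%) in NOD cells. Asns, asparagine synthetase, a target of the amino acid response, read 10.20, 10.16, 10.37 and 10.08 in NOD cultures, against 8.86, 8.87, 8.42 and 8.99 in C57BL/6 cultures (1.42 ± 0.14, SE, limma adjusted p = 9.38e-05). Trib3, of the same response, was higher by 1.18 ± 0.17 and Hspa1b, an inducible HSP70, by 1.22 ± 0.14 (SE). None of these 3 was called at steady state, and the 3 lower members numbered 1 without NOD replicate 4. Slc2a1, the glucose transporter GLUT1, and Eno2, a glycolytic enzyme, were higher by 0.57 ± 0.13 and 0.79 ± 0.12 (SE). Cox7c, a subunit of the respiratory chain, was lower by -1.45 ± 0.20 (SE). It was the only called gene of 26 in oxidative phosphorylation by limma (3.85%, background 5.19% lower), so that count was not above the background. With the block 2 were lower (background 7.46%), as they were without NOD replicate 1. Ctsk, a lysosomal protease that degrades collagen, was lower by -2.63 ± 0.28, and Nr1h3 (LXR-alpha), which controls cholesterol efflux, by -0.75 ± 0.17 (SE).

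In the list of 19 NK and innate lymphoid markers, 10 members were lower (background 5.19%) and none higher in NOD cells, with each array left out in turn as well. Ncr1, the defining NK receptor, read 6.53, 6.85, 6.44 and 6.67 in NOD cultures, against 8.09, 8.35, 7.68 and 8.56 in C57BL/6 cultures (-1.55 ± 0.18, SE, limma adjusted p = 0.00033). Klra8 (Ly49H), an activating receptor, read 5.68, 5.88, 5.03 and 6.30 in NOD cultures, against 8.59, 9.06, 8.57 and 8.95 in C57BL/6 cultures, and Klrd1 (CD94) differed by -1.62 ± 0.19 (SE). The NOD values of Ncr1 and Klra8 all lay below the array median. At steady state 14 of the 19 were lower (background 8.12%) and 1 higher (background 6.95%). The summed level of the list, which includes Ifng, ran from 15.30 to 15.55 in NOD and from 15.50 to 15.82 in C57BL/6 cultures and overlapped, and its part in the lower values of Ifng and Xcl1 was not tested.

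Of 13 B cell markers 4 were lower (background 5.19%) and none higher. The summed level ran from 12.76 to 13.58 in NOD cultures and from 13.72 to 14.85 in C57BL/6 cultures, without overlap. Ighm, the IgM heavy chain, read 12.61, 12.24, 12.53 and 11.64 in NOD cultures, against 14.05, 14.27, 13.77 and 12.82 in C57BL/6 cultures, but 2 of its 11 probe sets were called. Ms4a1 (CD20) differed by -1.49 ± 0.34 with overlapping groups and Cd79b, of the B cell receptor, by -1.21 ± 0.27 (SE). B cells also express MHC class II genes, which were lower in the same pools, and the part of the B cell markers in the class II difference was not tested. Of 11 neutrophil markers 4 were lower (background 5.19%) and none higher, among them Ngp (-1.70 ± 0.24) and Mmp8 (-1.20 ± 0.20, SE). The count was 2 without NOD replicate 1, 2 or 4 or C57BL/6 replicate 2. One marker was higher without C57BL/6 replicate 2 or 3 or NOD replicate 4. With the replicate number as a block 5 were lower (background 7.46%) and 2 higher (background 8.12%). The subunits of calprotectin went opposite ways, S100a8 by 0.63 (limma adjusted p = 0.00605 with the block and 0.277 without) and S100a9 by -1.97 (0.0405 with the block and 0.123 without). Csf3, the growth factor of that lineage, was higher in the same pools.

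The other leukocyte lists had few called members, where the background was 5.4% higher and 5.19% lower (8.12% and 7.46% with the block). Of 9 monocyte markers 1 was higher, F13a1, a subunit of clotting factor XIII (1.51 ± 0.15, SE, limma adjusted p = 9.94e-05), and 1 lower, Ccr2, and with the block 2 were higher and 3 lower. Without C57BL/6 replicate 1 there were 2 lower, and without C57BL/6 replicate 2 or NOD replicate 1 there were 2 higher. Of 13 mast cell and basophil markers 1 was higher, Ms4a2, a chain of the high-affinity IgE receptor (0.61 ± 0.11, SE), and 1 lower, Kit. With the block 4 of them were lower, and 5 without C57BL/6 replicate 4. Of 11 T cell markers 2 were lower, Thy1 (-0.98) and Cd2 (-0.68), a count that was 0 without C57BL/6 replicate 2 or NOD replicate 1 or 3 and 1 without C57BL/6 replicate 1, 3 or 4 or NOD replicate 4. With the block 3 were lower and 1 higher. Cd3e, which defines T cells, differed by 0.33, Cpa3 of mast cells by -0.24, Col1a1 of fibroblasts by 0.15, Cpa1 of acinar cells by -0.17 and Ins2 of beta cells by 0.22, none called.

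The study names 43 of the measured genes for its array data, of which 10 were higher (background 5.4%), 6 lower (background 5.19%) and 27 not called in PBS culture. Bcl2, which protects cells from apoptosis, read 9.45, 9.34, 8.81 and 9.43 in NOD cultures, against 9.63, 9.98, 9.57 and 9.88 in C57BL/6 cultures (-0.51 ± 0.16, SE, limma adjusted p = 0.0935). In this brightest probe set the groups did not overlap, but the call was lost without NOD replicate 2, 3 or 4 or C57BL/6 replicate 1, 2 or 4 (adjusted p from 0.109 to 0.21). Other probe sets of Bcl2 were also called lower, by -2.65, -0.76 and -0.63 (limma adjusted p = 9.72e-05, 0.015 and 0.0171). The probe set with a difference of -0.29 was not called (limma adjusted p = 0.323). Il10, a cytokine that restrains inflammation, read 8.68, 9.14, 9.14 and 8.30 in NOD cultures, against 9.55, 9.46, 9.45 and 9.02 in C57BL/6 cultures (-0.55 ± 0.20, SE, limma adjusted p = 0.136), against -1.63 at steady state. With the block Il10 was called (limma adjusted p = 0.0302). Called with the block, but not without it, were also Il15 (-0.34, adjusted p = 0.0676), Cd24a (-0.67, 0.0574), Chil3 (-0.96, 0.0168), Il1b (0.59, 0.0672), Il1f9 (0.66, 0.0526), Ptgs2 (0.59, 0.0585) and Cd209b (0.38, 0.0706), by limma.

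The p200 gene Ifi204 read 12.45, 12.48, 12.23 and 11.98 in NOD cultures, against 12.51, 12.44, 11.87 and 12.09 in C57BL/6 cultures, a difference of 0.05, against -1.41 at steady state. The study lists several probe sets under Ifi204, whereas 1 is named for it here, so this value does not stand for all of them. Ifi213, of the same family, was lower in PBS culture in each of its probe sets (-1.30 and -4.13). In the p200 list of 7 measured genes, 1 member was lower (background 5.19%) and with the block 2 were (background 7.46%). Ccl2, a ligand of Ccr2, differed by 0.26 without overlap, and the costimulator Cd40 by 0.15, neither called, whereas both were lower at steady state, by -0.55 and -0.62. The remaining uncalled genes of this set were Il12a (0.40), Il12b (-0.14), Csf2 (0.21), Mif (-0.21), Tlr4 (-0.24), Stat5a (-0.29), Cdk1 (-0.26), Cdk4 (0.11), Trem2 (0.02) and Cd200r3 (-0.05), besides Mx1, Itgax and the Reg genes. The Cd200r3 probe set averaged 5.12 in NOD and 5.17 in C57BL/6 cultures, below the lower quartile of the arrays. The study reports CD200R3 as much lower in NOD cells at steady state but names no probe set. Whether its value came from the probe set named here for Cd200r4 (-7.22 in PBS culture) was not tested. The uncalled Cd200r3 value is therefore no measure of that deficit.

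A further 50 called genes were named as list members, F13a1, Ms4a2, Thy1, Cd2 and Ube2c among them. Of 21 candidate genes of NOD diabetes loci 6 were lower (background 5.19%), including Tnfrsf9, a T cell costimulator (-1.22 ± 0.22, SE), and Vav3, which relays antigen receptor signals (-0.96 ± 0.13, SE). The 1 higher member (background 5.4%) was not called without NOD replicate 1 or 3 or C57BL/6 replicate 1 or 2. With the replicate number as a block 2 members were higher (background 8.12%). Complement genes went both ways, with Cd55, which limits complement on the cell surface (-1.30 ± 0.24, SE), C1qa (-0.66) and C1qc (-0.51) lower and Cd59a (0.72) higher. So did genes of cholesterol, with Cyp51 (0.51) of its synthesis higher and Idi1 (-0.68) of its synthesis and the exporter Abcg1 (-0.56) lower. Of the markers of mature migratory DCs, Marcksl1 (0.76) was higher, whereas Marcks (-0.52), Lad1 (-0.81) and Tnfrsf4 (-0.58), the receptor for OX40 ligand, were lower. Lower too were Calr (-0.61), Pmaip1 (-0.73), Timd4 (-0.74), Hspb1 (-0.63), Pfkp (-0.51), Pdk1 (-0.64), Nqo1 (-0.70), Pole (-0.50), Kdr (-0.62), Ly6d (-0.84), Naaa (-0.44), Fcrla (-0.80), Camp (-1.16) and Csf3r (-0.44). Higher were Cdh5 of endothelium (1.31 ± 0.22, SE), Timp1 (1.001), Cd163 (0.86), Plau (0.77), Mmp13 (0.75), Clec5a (0.59), Clec10a (0.55), Txnrd1 (0.54), Tnip1 (0.50), Nfkbiz (0.50), Bcl2l2 (0.47), Ctse (0.45), Ctsl (0.45), Tlr3 (0.44), Cd276 (0.41), Parp14 (0.37), H2-M3 (0.35) and Nlrc5 (0.33). Of these 50 genes, 24 kept the call with any array left out. The other 26 lost it (limma adjusted p from 0.1 to 0.223), 14 of them without NOD replicate 1, 15 without NOD replicate 2, 20 without NOD replicate 3, 17 without NOD replicate 4, 15 without C57BL/6 replicate 1, 17 without C57BL/6 replicate 2, 11 without C57BL/6 replicate 3 and 13 without C57BL/6 replicate 4. They were Bcl2l2, Camp, Cd163, Cd2, Cd276, Clec10a, Clec5a, Csf3r, Ctse, Ctsl, Cyp51, H2-M3, Kdr, Lad1, Ly6d, Mmp13, Naaa, Nfkbiz, Nlrc5, Nqo1, Parp14, Pdk1, Thy1, Timp1, Tnip1 and Ube2c.

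The strain difference in PBS culture was compared with that in LPS culture. Of the 1927 genes called in PBS culture 1201 (62.3%) were called in the same direction in LPS culture, where 1930 were called (10.6%), and 1 in the opposite direction. The interaction term was called for 11 probe sets (0.0244%) and 4 genes (0.022%): Mmp3, Gbp2b, Fcgr2b and Map2. Mmp3, a matrix protease, differed by 0.55 with PBS (7.08 ± 0.64 in NOD and 6.53 ± 0.15 in C57BL/6, SD, n = 4 each) and by 3.25 with LPS (9.94 ± 0.32, n = 4, and 6.69 ± 0.09, n = 3), with an interaction of 2.70 (limma adjusted p = 0.0104). Gbp2b, a guanylate-binding protein, read 11.34, 11.15, 11.22 and 10.85 in NOD PBS cultures, against 9.71, 9.12, 9.64 and 9.28 in C57BL/6 PBS cultures, and differed by 3.24 with LPS and by -0.70 at steady state. Of 10 listed guanylate-binding proteins and interferon-gamma GTPases, a list without Gbp2b, 1 was lower in PBS culture (Gbp8, -0.87, background 5.19%), against 7 at steady state (background 8.12%).

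Fcgr2b, lower in NOD PBS cultures, was level with LPS, at 13.001 ± 0.22 in NOD (n = 4) and 13.01 ± 0.05 in C57BL/6 cells (n = 3, SD), with an interaction of 1.26 (limma adjusted p = 0.0657). Map2, a microtubule protein of neurons, read 8.72, 8.98, 9.02 and 9.28 in NOD PBS cultures, against 7.38, 7.36, 6.89 and 6.81 in C57BL/6 PBS cultures. Its strain difference was 1.89 with PBS and 0.52 with LPS. With the replicate number as a block the interaction was called for 18 probe sets (0.04%), and that of Gbp2b was not called (limma adjusted p = 0.117). Leaving out any array gave between 5 (without C57BL/6 LPS replicate 3) and 14 (without NOD PBS replicate 3).

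Probe sets of a gene did not always give the same result. Of 1022 called genes with several probe sets, 349 had all of them called in the same direction, and 15 had probe sets called in opposite directions. Of the genes given above with several probe sets, Pomk, for example, had 2 of 3 called, Slc13a3 2 of 4, Fcgr2b 4 of 5 and Mcm5 1 of 3, each called one in the direction of the gene. For Tgfb2 the probe set with a difference of 0.42 was not called (limma adjusted p = 0.154). Genes not called by the brightest probe set could have another that was, as Cd24a (-0.88, limma adjusted p = 0.0568), Il12b (-0.56, 0.0699) and Cd40 (0.39, 0.0749).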

How the data were processed

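RNA was amplified and hybridised on Affymetrix whole-genome mouse arrays. The deposited files hold log2 values, the output of RMA as run by the authors (BRB-ArrayTools, version not given in the sources used here). No fit included the 64 AFFX control probe sets among 45101. Of the 45037 tested, 34945 name 1 gene, 932 several and 9160 are not named here. The brightest probe set naming 1 gene alone stands for it (18193 genes, 99.4% of such probe sets matched by Entrez ID). No array was left out. The number of arrays limits the precision, and p-values measure the spread between pools. RMA brings the arrays to a common distribution, so differences are relative to the bulk of genes. The probes follow the reference sequence, and base differences of NOD under probes were not tested.

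The 8 PBS arrays were fitted with limma 3.58.1 in R 4.3.3, without covariates or filter, and adjusted by Benjamini-Hochberg over all probe sets. A call is an adjusted p under 0.1, the study's false discovery level, where the study used a multivariate permutation test. Interaction terms were fitted over 15 arrays each. In simulated data with 200 changed probe sets, this fit recovered 84.5% of changes of 1 log2 unit (10.1% of calls false), 100% of 2 units, and 0% of 0.5 units. In the data 4447 probe sets were called, so the adjusted threshold was less strict there. These shares therefore do not give the recovery in the data, where differences as small as that of Nlrc5 (0.33) were called. Residuals of equal array numbers correlated between strains (r = 0.314, 0.298, 0.137 and 0.32), and those of unequal numbers by -0.332 to 0.143. The value of replicate 3 (0.137) was thus within the range of unequal numbers. Residuals of equal numbers also correlated between PBS and LPS (r from 0.241 to 0.487 within strain). On this basis the number was used as a block. The paired fit is given where it changes a call or moves a count by more than 1.5 times. Per the study's methods part of each sort was lysed and the rest cultured, but no source says that numbers mark that split, and residuals of equal numbers at steady state and in PBS culture correlated by 0.277 and 0.0996 in NOD and 0.177 and -0.0328 in C57BL/6 cells.

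Named were the 12 largest called differences in each direction without overlap and with the higher mean at or above the array median, up to 4 called members of each list, genes the study names for its array data, the 6 largest in each direction of each interaction, and Reg and marker genes. H2-Eb1, H2-Oa and Cd74 were added after their values were seen. The comparison, the 45 lists (727 of 827 genes measured) and the tests were chosen with earlier results of these data known. Alternatives were a stricter threshold, a 2-fold minimum, a dimness filter, 1 fit of all 22 arrays, median centring, quantile normalization, an intensity trend with robust spread, array weights, the block, each array left out, and the mean over probe sets. Promoter windows came from RefSeq (GRCm38.p6).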

Additional observations from a re-analysis of the deposited data

Results flagged for a closer look

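In 22 of 390 groups of 4 arrays, 1 array lay far from the other 3, where chance gives about 1 in 20 groups. Its level is given first and the range of the other 3 after it. In NOD replicate 1 this was Pmaip1 (10.12, against 10.45 to 10.51). In NOD replicate 2 this was Cd59a (8.92, against 8.49 to 8.56). In NOD replicate 3 this was Pomk (8.17, against 8.41 to 8.46). In NOD replicate 4 this was Cacna1a (9.62, against 9.44 to 9.46) and Hspa1b (11.57, against 12.06 to 12.15). In C57BL/6 replicate 1 this was Cdh5 (8.31, against 8.69 to 8.70) and Reg3a (6.74, against 5.75 to 5.92). In C57BL/6 replicate 2 this was Tnip1 (12.31, against 12.10 to 12.13). In C57BL/6 replicate 3 this was Irf4 (9.55, against 10.18 to 10.23), Clec7a (9.95, against 9.28 to 9.38), Pirb (12.997, against 12.72 to 12.74), Cxcl9 (13.06, against 13.65 to 13.74), Tlr1 (10.79, against 10.38 to 10.42), Ank2 (7.29, against 7.63 to 7.64), Trib3 (9.33, against 9.73 to 9.80), Cd8a (10.34, against 8.79 to 9.02), Il1f9 (9.57, against 8.44 to 8.49) and Txnrd1 (12.70, against 12.30 to 12.36). In C57BL/6 replicate 4 this was Ccr2 (10.28, against 9.75 to 9.82), Htr1b (7.62, against 8.20 to 8.23), Cd24a (10.61, against 10.84 to 10.86) and Ube2c (8.41, against 9.55 to 9.74).

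The strain difference in PBS culture differed from that at steady state, by the limma interaction term, for 99 of the named genes, of which 42 kept the call with the strain and replicate number as a block. In 62 it was more positive in culture, by 5.50 for Melk, 4.53 for Slc7a2, 3.99 for Col23a1, 3.20 for Postn, 2.99 for Hmga2, 2.88 for H60c, 2.67 for Smim13, 2.64 for Reg2, 2.45 for Ifi213, 2.40 for Gbp2b, 2.40 for Tpx2, 2.14 for Csf3, 2.03 for Mki67, 1.99 for Il6, 1.91 for Mmp13, 1.88 for Cxcl1, 1.86 for Il1a, 1.84 for Reg3b, 1.83 for Map2, 1.81 for Asns, 1.75 for Inhba, 1.74 for Hbegf, 1.62 for Reg3a, 1.60 for Unc13b, 1.57 for Cd14, 1.47 for Ifi204, 1.47 for Npl, 1.40 for Nlrp3, 1.40 for Nfkbiz, 1.32 for F13a1, 1.31 for Trib3, 1.11 for Mx2, 1.11 for Il1b, 1.10 for Il18, 1.10 for Hspa1b, 1.09 for Irf4, 1.09 for Cpa3, 1.08 for Il10, 1.07 for Tnf, 1.03 for Tnfsf4, 1.01 for Cdh5, 0.99 for Reg3d, 0.98 for Mx1, 0.95 for Pdk1, 0.94 for Trem1, 0.93 for Zfp979, 0.87 for Plau, 0.85 for Mrc1, 0.84 for Ifi202b, 0.84 for Slc2a1, 0.83 for Tlr3, 0.81 for Ccl2, 0.77 for Cd40, 0.74 for Ms4a2, 0.71 for Nlrc5, 0.71 for Reg3g, 0.69 for Marcksl1, 0.65 for H2-M3, 0.61 for Cyp51, 0.60 for Bcl2l2, 0.55 for Txnrd1 and 0.42 for Parp14. In 37 it was more negative in culture, by -5.48 for Pcp4, -4.76 for Rnf225, -4.33 for Fbp1, -3.39 for Lhx2, -3.26 for Pomk, -3.25 for Htr1b, -2.99 for Hgsnat, -2.56 for S100a9, -2.41 for Cxcl9, -2.23 for Slc13a3, -2.12 for Cd200r4, -2.10 for Ctsk, -1.92 for Nrcam, -1.70 for H2-DMa, -1.49 for D730005E14Rik, -1.23 for H2-DMb2, -1.19 for BC018473, -1.18 for Ido1, -1.18 for Kit, -1.15 for Mmp8, -1.13 for C1qa, -1.0002 for Ccr2, -0.98 for Cd48, -0.91 for Ngp, -0.91 for Kdr, -0.85 for H2-Aa, -0.84 for Pirb, -0.81 for Tlr9, -0.80 for Ctse, -0.79 for Cd209b, -0.74 for Fcgr2b, -0.72 for H2-Eb1, -0.67 for Timd4, -0.60 for Tnfrsf4, -0.56 for H2-Ab1, -0.56 for Mif and -0.52 for C1qc.

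The strain difference in LPS culture differed from that in PBS culture by 1.26 for Fcgr2b, 1.54 for Gbp2b, -1.37 for Map2 and 2.70 for Mmp3.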

How the results depend on the processing

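Of 152 called genes named with values, 116 kept call and direction in every alternative at an adjusted p under 0.1, 32 lost the call when an array was left out, 14 in another alternative (Il6, Mcm5, Reg2, Ighm, Bcl2, Bcl2l2, Ctse, Ctsl, Cyp51, H2-M3, Ms4a2, Naaa, Pole and Ube2c) and 23 at an adjusted p under 0.05. In the mean over probe sets Ctsl turned to -0.11. The other turns of direction were in genes that were not called. With array weights these were Cpa1 (0.12) and Ifi204 (-0.076). With 1 array left out differences ran from -0.90 to 0.24 for Cpa1, -0.066 to 0.15 for Ifi204, -0.21 to 0.11 for Cd200r3, -0.065 to 0.27 for Col1a1, -0.23 to 0.46 for Csf2, -0.41 to 0.037 for Reg3b, -0.084 to 0.031 for Reg3g, -0.17 to 0.039 for Reg4 and -0.22 to 0.20 for Trem2.

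The count of called probe sets was 4447, and 928 of these reached 2-fold. With the replicate number as a block it was 6826, and in other alternatives it stayed between 3063 (adjusted p under 0.05) and 6357 (spread from all 22 arrays). Leaving out 1 array gave 3137 to 3819 probe sets and 1366 (without NOD replicate 3) to 1660 genes, against 1927. Genes called numbered 1344 to 2834 under the other alternatives, the last with the block. The interaction of PBS culture and steady state was called for 3063 probe sets, for 2037 at an adjusted p under 0.05 and for 649 with the block, and for 1955 (without NOD steady state replicate 4) to 3232 with 1 array left out. Numbers 1 and 4 alone are shared there within a strain, and of these 4 pairs 2 had residual correlations over 0.1, so a pairing was not established from the numbers. The interaction of LPS and PBS was called for 11 probe sets, for 18 with the block, 20 with the spread from all 22 arrays, 6 without the dimmer 50% of probe sets, and 5 to 14 with 1 array left out. The block ended no call of a named gene for the strain difference in PBS culture, whereas it ended 57 of 99 interaction calls with steady state and that of Gbp2b with LPS. The cause of these shifts was not tested. Levels below the lower quartile, as for Cd200r4 in NOD cells, make the size of a difference uncertain.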
